A study of Mus musculus with 6 samples.

Results

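Embryonic and adult globin genes, together with Alas2, were followed in the whole brain of mouse embryos at stage E16.5. The group held 8 genes, chosen by symbol from the 53801 genes of the count table, and each symbol matched 1 gene. They were Hba-a1, Hba-a2 and Hba-x of the alpha-globin cluster, Hbb-bs, Hbb-bt, Hbb-y and Hbb-bh1 of the beta-globin cluster, and Alas2. All 8 passed the minimum of 10 counts summed over the embryos.

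Polyadenylated RNA was sequenced from 6 C57BL/6 embryos, 3 homozygous for a constitutive null allele of Bahd1 (Bahd1-KO) and 3 of wild type (Bahd1-WT). BAHD1 helps to assemble complexes that repress chromatin, and the comparison asks whether its loss changes transcription in the brain before birth. The knockout affects every cell of the embryo, blood included, and the brains were dissected in buffer with no removal of blood described. Each replicate was a separate embryo, values per embryo are listed from replicate 1 to 3, and litters are not given in the sources used here.

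Haemoglobin is a tetramer of alpha-like and beta-like globin chains, each holding a haem group. In the mouse the first red cells, made in the yolk sac, use the embryonic chains zeta (Hba-x), epsilon-y (Hbb-y) and beta-h1 (Hbb-bh1). Red cells made later in the fetal liver use the adult chains of Hba-a1, Hba-a2, Hbb-bs and Hbb-bt, so the ratio of embryonic to adult transcripts falls as gestation proceeds. Alas2 encodes the erythroid form of 5-aminolevulinate synthase, the enzyme of the first step of haem synthesis. Young red cells keep globin mRNA after they lose the nucleus, and globin transcripts in a dissected tissue are therefore a usual measure of the blood it holds.

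The promoters of an adult and an embryonic gene of each cluster, and that of Alas2, are shown because the comparison turned on how these genes diverged between embryos. Each line gives the 150 bases before the transcription start that RefSeq places on GRCm38.p6, 5′ to 3′ on the strand of the gene. The gene positions given below are from GENCODE, which starts these genes further upstream. Each window shown therefore overlaps its gene as positioned there, and those of Hba-a1, Hba-x and Hbb-bs lie within it. Capitals mark the motif CCAAT, which reads ATTGG where it lies on the other strand, and the motif CACCC, which then reads GGGTG. They also mark the motif GATA, which reads TATC where it lies on the other strand. These motifs and the motif TATAA were searched on both strands, and TATAA was found here only on the strand of the gene. No base fell in more than 1 motif. The RefSeq table used here matched Hba-a1, Hba-a2, Hba-x, Hbb-bs, Hbb-bt, Hbb-y and Alas2.
Hba-a1, chr11:32283522-32283671, plus strand: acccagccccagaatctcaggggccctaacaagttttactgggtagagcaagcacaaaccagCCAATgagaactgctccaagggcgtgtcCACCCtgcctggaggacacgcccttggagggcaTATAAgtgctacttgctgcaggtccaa
Hba-x, chr11:32276450-32276599, plus strand: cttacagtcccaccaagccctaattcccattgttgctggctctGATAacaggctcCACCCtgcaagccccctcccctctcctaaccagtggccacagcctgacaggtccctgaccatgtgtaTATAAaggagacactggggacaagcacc
Hbb-bs, chr7:103827929-103828078, minus strand: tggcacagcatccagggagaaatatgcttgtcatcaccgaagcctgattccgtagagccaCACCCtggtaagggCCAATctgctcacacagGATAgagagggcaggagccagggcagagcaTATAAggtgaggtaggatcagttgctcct
Hbb-y, chr7:103853208-103853357, minus strand: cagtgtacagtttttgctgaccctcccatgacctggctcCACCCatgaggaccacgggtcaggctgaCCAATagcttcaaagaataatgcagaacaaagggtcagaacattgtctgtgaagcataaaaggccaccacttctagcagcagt
Alas2, chrX:150547267-150547416, plus strand: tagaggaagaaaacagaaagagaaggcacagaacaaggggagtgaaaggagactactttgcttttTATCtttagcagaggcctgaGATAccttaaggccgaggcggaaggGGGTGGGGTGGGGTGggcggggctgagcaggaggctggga

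CACCC, the core of the sites that Krüppel-like factors bind, was present in all 7 matched promoters, against 37.4% of 32851 promoters of the same length. CCAAT was found in Hba-a1, Hba-a2, Hbb-bs, Hbb-bt and Hbb-y, against 24.5% of all promoters, and the letters were not in the windows of Hba-x and Alas2. TATAA began 27 bases before the start in Hba-a1, 30 in Hba-a2, 28 in Hba-x, 29 in Hbb-bs and 28 in Hbb-bt. On either strand, 14.2% of all promoters held it. GATA was found in Hba-x, Hbb-bs, Hbb-bt and Alas2, against 35.7% of all promoters. The adult and embryonic promoters shown were 50.9% identical within the alpha cluster and 49.7% within the beta cluster. Pairs of these promoters across the clusters were 46.9% to 53.1% identical, so the values show no closer likeness within a cluster.

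In each cluster the embryonic genes lie upstream of the adult genes. On GRCm38, Hba-x occupied chr11:32276400-32278116, upstream of Hba-a1 at chr11:32283511-32284465 and Hba-a2 at chr11:32296489-32297298, all on the plus strand. On the minus strand of chromosome 7, Hbb-y occupied chr7:103851749-103853216, Hbb-bh1 chr7:103841637-103843164, Hbb-bs chr7:103826534-103828096 and Hbb-bt chr7:103812524-103813996. Alas2 occupied chrX:150547375-150570638 on the plus strand. Counting covered the exons of each gene.

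The adult genes come in near-identical pairs. The coding sequences of Hba-a1 and Hba-a2 were identical at 428 of 429 bases and those of Hbb-bs and Hbb-bt at 443 of 444, whereas Hba-a1 and Hba-x shared 64.1% of aligned bases and Hbb-bs and Hbb-y 74.3%. The single-end reads that the study's methods describe were 65 bases long. Of the 65-base stretches of its transcripts, Hba-a1 shared 64.4% with Hba-a2, Hba-a2 shared 83.5% with Hba-a1, Hbb-bs shared 56.5% with Hbb-bt and Hbb-bt shared 57.3% with Hbb-bs. Hba-x, Hbb-y, Hbb-bh1 and Alas2 shared none with any other gene. The featureCounts options that the methods state do not include the counting of reads with several alignments, which the tool leaves out by default. With that default, reads that align equally well to both copies are missing from the 4 adult genes, and every ratio of embryonic to adult counts is higher for it.

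Libraries held between 61.7 and 91.8, in units of 1e6 counts. Reads of Bahd1 numbered 2, 10 and 6 in Bahd1-KO, whereas Bahd1-WT had 1971, 3102 and 3470, as the labels state. Bahd1-KO replicate 3 stood apart from the other 5 libraries. Its summed level of 8 embryonic brain markers was 1007 CPM (counts per 1e6 counts, scaled with TMM factors), against 7658 to 9339 in the others, and Dcx, a microtubule protein of migrating neurons, stood at 33.0 CPM against 1865 to 3713. Its marker sum was 11.9% of the mean of the others. Genes of ribosomal RNA took 44.7% of its counts and at most 0.614% elsewhere. The paper calls this embryo a possible outlier and repeated its embryo analysis without it. Whether its tissue was whole brain as labelled was not tested, and its values carry that doubt. Fold changes, list medians and differences of ratios are therefore given with and without this embryo. In a bulk sample, fewer cells of a type and less RNA per cell cannot be told apart.

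The adult globins were the most abundant of the group, and no genotype difference was detected in them. Hbb-bs, the main adult beta chain of this strain, stood at 89.6, 369.6 and 205.6 CPM in the 3 Bahd1-KO embryos and at 77.2, 222.2 and 306.6 CPM in Bahd1-WT. Hbb-bt, its neighbour and near copy, stood at 18.1, 66.4 and 58.5 CPM in Bahd1-KO and at 14.6, 36.8 and 65.3 CPM in Bahd1-WT. For both, replicate 1 of each genotype was the lowest of its group and the groups overlapped. Hba-a1, an adult alpha chain, stood at 10.4, 74.1 and 25.8 CPM in Bahd1-KO and at 14.4, 50.05 and 62.4 CPM in Bahd1-WT. Hba-a2, the near copy of Hba-a1, stood at 9.31, 47.9 and 23.8 CPM in Bahd1-KO and at 10.3, 29.2 and 40.3 CPM in Bahd1-WT. The order of the embryos differed little between the alpha and beta genes, with Bahd1-KO replicate 2 the highest of all in each.

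**Figure D1:**
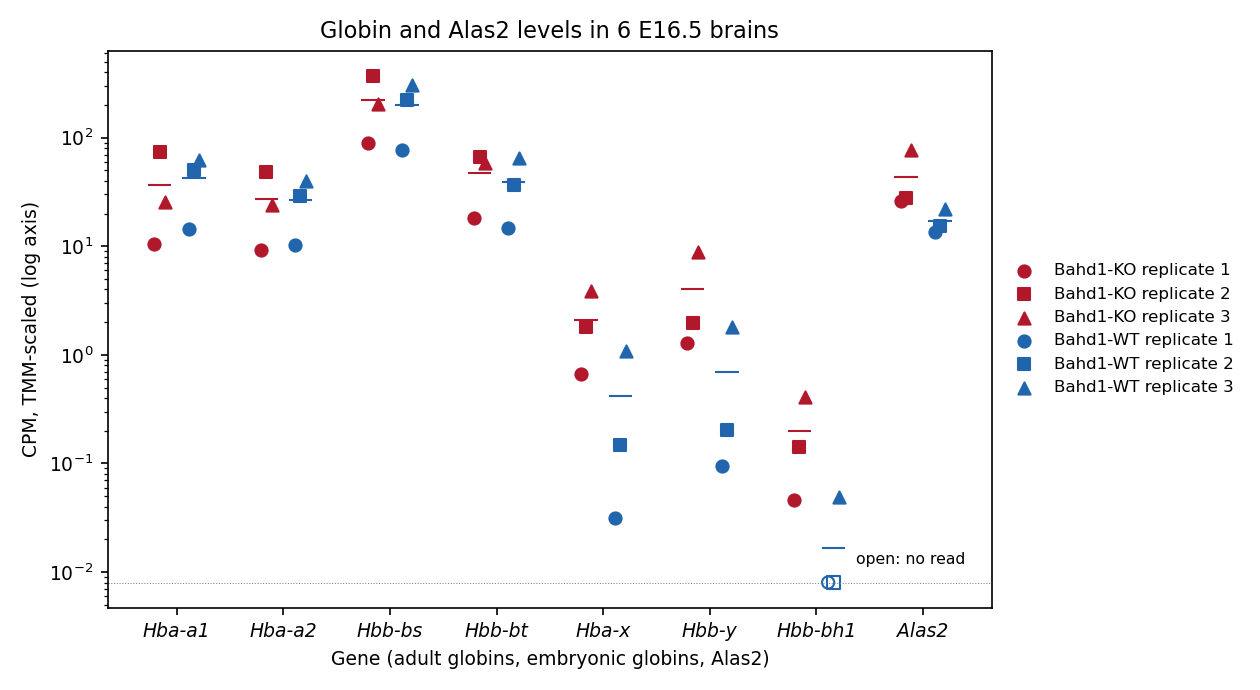
TMM-scaled CPM on a log axis for each gene, with 1 symbol per embryo, Bahd1-KO in red, Bahd1-WT in blue and short lines at the group means. The adult globins overlap between genotypes, all 3 Bahd1-KO embryos lie above all 3 Bahd1-WT embryos for Alas2, and open symbols mark 2 embryos without a read of Hbb-bh1.

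The fitted log2 differences of Bahd1-KO over Bahd1-WT were small against their standard errors in the adult genes. By edgeR's quasi-likelihood test with Benjamini-Hochberg adjustment over all 24739 genes tested, Hbb-bs differed by 0.13 (SE 0.63, adjusted p = 0.946) and Hbb-bt by 0.29 (SE 0.64, adjusted p = 0.881). By the same test Hba-a1 differed by -0.20 (SE 0.77, adjusted p = 0.933) and Hba-a2 by 0.02 (SE 0.67, adjusted p = 0.993). Without Bahd1-KO replicate 3 the log2 differences were 0.19, 0.12, 0.01 and 0.11 for Hbb-bs, Hbb-bt, Hba-a1 and Hba-a2. The signs of the adult genes were not stable, since each turned in at least 2 of 14 alternatives. Between embryos of the same genotype the spread was wide, and over all 6 embryos the highest level was 4.79 times the lowest for Hbb-bs and 7.12 times for Hba-a1.

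Summed over the 7 globins, the level is a usual measure of the red cell RNA in each dissection. It was 129, 562 and 327 CPM in the 3 Bahd1-KO embryos, and 117, 339 and 477 CPM in Bahd1-WT. The mean was 339 ± 217 CPM in Bahd1-KO against 311 ± 182 CPM in Bahd1-WT (SD, n = 3 embryos each), and the ranges overlapped almost wholly. On the log2 scale the genotypes differed by 0.11 (two-sided exact permutation test, p = 0.8), and by 0.02 without Bahd1-KO replicate 3 (p = 0.8, exact). With 3 embryos against 3 this test cannot go below 0.1, nor below 0.2 once Bahd1-KO replicate 3 is left out. Blood content by this measure varied 4.82-fold between embryos, and no genotype difference was detected. The globins took between 0.0122% and 0.0621% of all counts.

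The embryonic globins were far less abundant, and all 3 had their highest value in Bahd1-KO replicate 3, with overlap between the groups. Hbb-y, the main embryonic beta chain here, stood at 1.28, 1.97 and 8.82 CPM in the 3 Bahd1-KO embryos and at 0.0940, 0.204 and 1.80 CPM in Bahd1-WT. These levels rest on 84, 166 and 476 counts in Bahd1-KO, whereas Bahd1-WT had 9, 18 and 182. Bahd1-WT replicate 3 lay between Bahd1-KO replicates 1 and 2, so that the groups overlapped by this embryo alone. Hba-x, the embryonic alpha chain, stood at 0.672, 1.80 and 3.84 CPM in Bahd1-KO and at 0.0313, 0.147 and 1.08 CPM in Bahd1-WT. The counts of Hba-x were 44, 152 and 207 in Bahd1-KO, whereas Bahd1-WT had 3, 13 and 109. As with Hbb-y, Bahd1-WT replicate 3 was above Bahd1-KO replicate 1 and below the other Bahd1-KO embryos.

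Hbb-bh1, the second embryonic beta chain, was near the limit of detection. Its counts were 3, 12 and 22 in Bahd1-KO, whereas Bahd1-WT had 0, 0 and 5. A count of 0 allows up to 0.0313 CPM in Bahd1-WT replicate 1 and 0.0340 CPM in Bahd1-WT replicate 2, limits that cover counting error only. Summed over embryos, 37 counts in Bahd1-KO and 5 counts in Bahd1-WT gave a ratio of 10.3 after TMM scaling, with an exact 95% interval of 4.05 to 33.7 for counting error between these libraries. Without Bahd1-KO replicate 3 the ratio was 5.70, from 15 against 5 counts, with an interval of 1.97 to 20.05. The groups overlapped, since Bahd1-KO replicate 1 stood at 0.0458 CPM and Bahd1-WT replicate 3 at 0.0495 CPM.

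The tests left the embryonic genes short of the threshold. By edgeR's quasi-likelihood test, the log2 difference of Bahd1-KO over Bahd1-WT was 2.52 for Hbb-y (SE 1.24, adjusted p = 0.696), 2.32 for Hba-x (SE 1.21, adjusted p = 0.696) and 3.42 for Hbb-bh1 (SE 1.38, adjusted p = 0.696). The estimate for Hbb-bh1 rests on few counts and depends on the prior count of the model. Without Bahd1-KO replicate 3 the log2 differences were 1.20 (SE 0.99) for Hbb-y, 1.55 (SE 1.05) for Hba-x and 2.39 (SE 1.13) for Hbb-bh1, each with adjusted p = 0.981 by edgeR. The sign was positive in every alternative run for these 3 genes, while the size ranged from 1.20 to 4.72 for Hbb-y, from 1.55 to 4.51 for Hba-x and from 2.39 to 6.94 for Hbb-bh1.

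**Figure D2:**
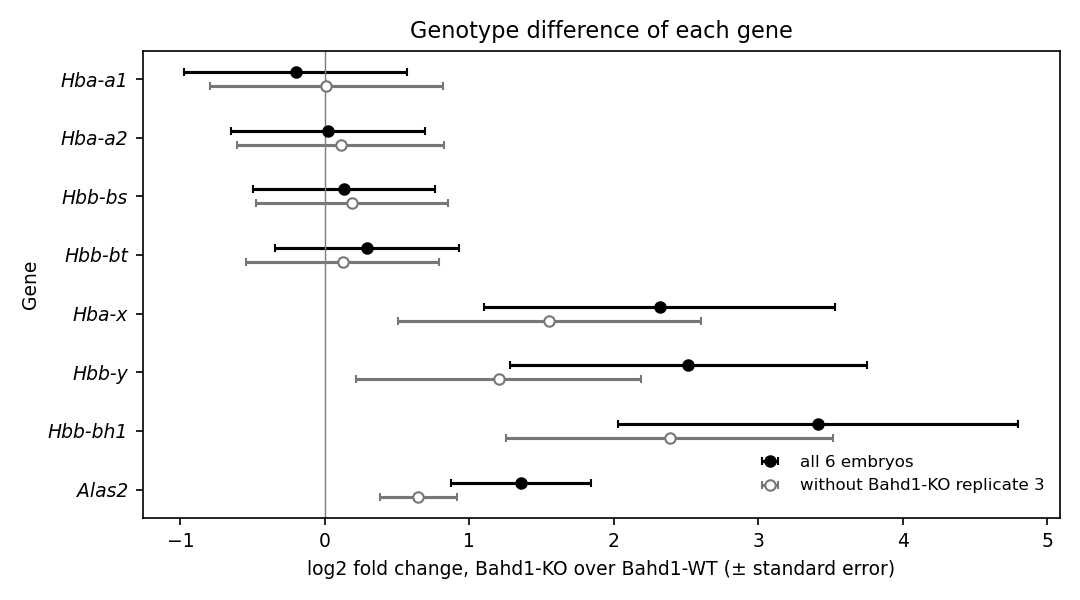
Log2 fold change of Bahd1-KO over Bahd1-WT with its standard error for each gene, from all 6 embryos (filled) and without Bahd1-KO replicate 3 (open). The 4 adult globins lie around 0, and the embryonic globins and Alas2 lie above 0 with lower values once Bahd1-KO replicate 3 is left out.

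Of the 8 genes, 0 passed the adjusted threshold of 0.05 in edgeR, where 1 gene of 24739, Bahd1 itself, did (0.00404%). In DESeq2 0 of the 8 passed, where 8 genes of the table did (0.0323%). Even Bahd1, nearly without reads in Bahd1-KO, only just passed in edgeR (adjusted p = 0.0462). The absence of calls among the 8 therefore says little about smaller differences. At an unadjusted p under 0.05, Hbb-bh1 and Alas2 were higher in Bahd1-KO by edgeR, as were 4.51% of all genes tested, and DESeq2 gave 4 of the 8 genes, as it did 4.97% of all genes in this direction. Without Bahd1-KO replicate 3, edgeR gave 0 genes of the 8 past the adjusted threshold, against 0.0171% of all genes tested, and 1 at an unadjusted p under 0.05, Alas2, against 1.09% of all genes in this direction. Without Bahd1-WT replicate 1 or Bahd1-WT replicate 2, 0 genes of the 8 reached an unadjusted p under 0.05 by edgeR. There 180 of 24160 and 139 of 24183 genes were higher in Bahd1-KO at this level. Without Bahd1-WT replicate 3, 4 of the 8 were higher at this level, beside 151 of 24099 genes. With the replicate number as a block 4 were, beside 352 of 24739 genes. Without Bahd1-KO replicate 1 or Bahd1-KO replicate 2, 2 of the 8 were in each, beside 2399 of 24309 and 2965 of 24149 genes. In 1 of the 8, Alas2, every Bahd1-KO embryo was above every Bahd1-WT embryo, a pattern that 4.47% of all genes tested showed. Leaving out Bahd1-KO replicate 3, Alas2 was still the single gene of the 8 with both remaining Bahd1-KO embryos above Bahd1-WT, against 6.73% of all genes.

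The switch from embryonic to adult chains can be read within each library, which removes the amount of blood and the library scaling from the measure. Hba-x made up 3.29% of alpha-globin counts in Bahd1-KO replicate 1, 1.45% in replicate 2 and 7.17% in replicate 3. In Bahd1-WT it made up 0.127%, 0.186% and 1.04%. The groups did not overlap, but the nearest embryos were close, with 95% Wilson intervals of 1.24% to 1.70% in Bahd1-KO replicate 2 and 0.863% to 1.25% in Bahd1-WT replicate 3. The mean was 3.97% ± 2.92 in Bahd1-KO against 0.451% ± 0.511 in Bahd1-WT (SD, n = 3 embryos each). The difference of 3.52 percentage points gave p = 0.1 in a two-sided exact permutation test, the smallest value possible, and p = 0.333 after adjustment over the 5 measures tested in this way. Without Bahd1-KO replicate 3 the difference was 1.92 percentage points (p = 0.2, exact). With counts divided by the number of 65-base stretches found in no other gene, it was 0.519 percentage points, again without overlap (p = 0.1, exact).

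The beta cluster gave a parallel pattern with overlap. Hbb-y and Hbb-bh1 together made up 1.22%, 0.481% and 3.38% of beta-globin counts in the 3 Bahd1-KO embryos. In Bahd1-WT they made up 0.102%, 0.0787% and 0.495%. Bahd1-WT replicate 3, with a 95% Wilson interval of 0.429% to 0.571%, and Bahd1-KO replicate 2, with 0.416% to 0.557%, could not be told apart by counting. The means were 1.69% ± 1.51 and 0.225% ± 0.234 (SD, n = 3 each), and the difference of 1.47 percentage points gave p = 0.2 in the exact permutation test, or 0.333 after adjustment over the 5 measures. Without Bahd1-KO replicate 3 it was 0.624 percentage points (p = 0.4, exact), and per unshared stretch it was 0.734 (p = 0.2, exact). These intervals cover counting error only, since reads without molecular identifiers are not independent molecules.

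**Figure D3:**
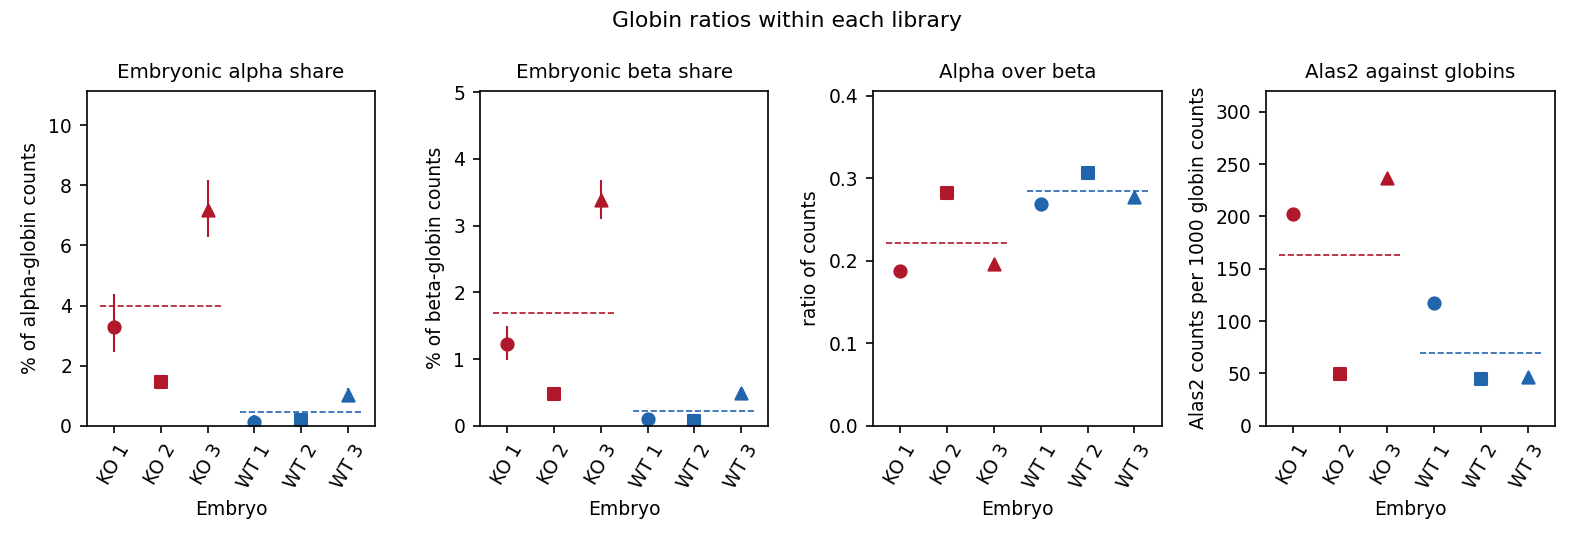
Embryonic shares of alpha- and beta-globin counts (%, bars show 95% Wilson intervals), the ratio of alpha to beta counts and Alas2 counts per 1000 globin counts in each embryo, with dashed lines at the group means. The alpha share separates the genotypes, with 1.45% in the lowest Bahd1-KO embryo and 1.04% in the highest Bahd1-WT embryo, and the other 3 measures overlap.

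Other measures did not separate the genotypes. The ratio of alpha to beta counts was 0.187, 0.282 and 0.196 in Bahd1-KO embryos, while Bahd1-WT embryos had 0.268, 0.306 and 0.278. The difference of the means was -0.06 (p = 0.3, two-sided exact permutation test, 0.375 adjusted) and -0.05 without Bahd1-KO replicate 3 (p = 0.6, exact), and Bahd1-KO replicate 2 lay within the Bahd1-WT range. Hba-a2 took 36.9% to 48.0% of the adult alpha counts and Hbb-bt 14.2% to 22.1% of the adult beta counts over the 6 embryos, with Bahd1-KO replicate 3 the highest in both.

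The embryonic genes kept closer proportions to one another than to the adult genes. Hba-x had 0.524, 0.916 and 0.435 counts for each Hbb-y count in the Bahd1-KO embryos, against 0.333, 0.722 and 0.599 in Bahd1-WT. Per kilobase of exon, Hbb-bs exceeded Hbb-y 57.6, 155 and 19.2 times in Bahd1-KO, against 677, 897 and 140 times in Bahd1-WT. Hba-a1 exceeded Hba-x 17.9, 47.6 and 7.77 times in Bahd1-KO, against 529, 392 and 66.8 times in Bahd1-WT on the same per-kilobase scale. Bahd1-WT replicate 3 had the lowest excess of its group for both pairs. Its excess of Hbb-bs over Hbb-y was below that of Bahd1-KO replicate 2, and its excess of Hba-a1 over Hba-x was above that of every Bahd1-KO embryo.

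Levels per kilobase of exon ordered the genes almost alike in all embryos. Hbb-bs led in 6 of 6, with a mean of 276 CPM per kilobase and a range that did not meet that of Hbb-bt at 61.6. The ranges of the other neighbours in the order overlapped, namely Hbb-bt, Hba-a1 at 48.7, Hba-a2 at 40.2, Alas2 at 12.6, Hbb-y at 3.73, Hba-x at 1.34 and Hbb-bh1 at 0.175. Within embryos the order was firmer. Hba-a2 was above Alas2, Alas2 above Hbb-y, Hbb-y above Hba-x and Hba-x above Hbb-bh1 in 6 of 6. Hbb-bt was above Hba-a1 in 5 and Hba-a1 above Hba-a2 in 4. The order among the adult genes depends on how reads of the near copies were counted. Stretches of 65 bases found in no other gene numbered 81 of 490 in Hba-a2 and 226 of 635 in Hba-a1. They numbered 273 of 639 in Hbb-bt and 282 of 648 in Hbb-bs.

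Alas2 was the gene of the group in which no embryo of one genotype reached the other. It stood at 26.1, 27.7 and 77.4 CPM in the 3 Bahd1-KO embryos and at 13.7, 15.3 and 22.2 CPM in Bahd1-WT. All 3 Bahd1-KO embryos were above all 3 Bahd1-WT embryos, also without TMM scaling, where they stood at 27.7 to 52.9 against 14.3 to 24.6 counts per 1e6 counts of the library. The log2 difference was 1.36 (SE 0.48, adjusted p = 0.696, edgeR) and 0.65 without Bahd1-KO replicate 3 (SE 0.27, adjusted p = 0.981). Alas2 was higher in Bahd1-KO in all 14 alternatives, by 0.64 to 1.63 on the log2 scale.

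The amount of Alas2 for a given amount of globin varied 5.24-fold between embryos. For each 1000 globin counts there were 202, 49.3 and 237 Alas2 counts in Bahd1-KO embryos, while Bahd1-WT embryos had 117, 45.2 and 46.5. Replicate 1 of either genotype, low in adult globins, was high by this measure, and the groups overlapped. The difference of the means was 93.0 (p = 0.2, two-sided exact permutation test, 0.333 adjusted), and 56.0 without Bahd1-KO replicate 3 (p = 0.4, exact).

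Genes that serve the same cells or pathway were read beside the group, in 13 lists. At an unadjusted p under 0.05 by edgeR, 4 of the 14 red cell membrane genes tested were higher in Bahd1-KO. So were 3 of 9 white cell, 3 of 6 placenta, 1 of 8 endothelial and 1 of 7 iron genes tested. The share over all genes tested was 4.51%. Lower were 0 genes of any list and 0.166% of all genes tested. None of these genes passed the adjusted threshold. Of the 8 other enzymes of haem synthesis, 0 passed the adjusted threshold, and their median log2 difference was -0.16, against 0.06 over all genes tested, and -0.23 without Bahd1-KO replicate 3, against -0.01. The most abundant were Fech, the enzyme that inserts iron, at 30.9 to 61.4 CPM, Alas1, the housekeeping counterpart of Alas2, at 21.3 to 35.2 CPM, and Cpox at 14.1 to 50.3 CPM. Of 7 genes of iron and haem transport, 0 passed and the median was -0.29, or -0.09 without Bahd1-KO replicate 3. Tfrc, the transferrin receptor, stood at 85.2 to 152 CPM, Abcb10 at 16.2 to 31.5 CPM and Slc25a37, the mitochondrial iron importer of red cell precursors, at 14.8 to 53.1 CPM in Bahd1-KO and at 10.6 to 12.3 CPM in Bahd1-WT, without overlap (log2 difference 1.33, adjusted p = 0.696, edgeR), and its log2 difference was 0.50 without Bahd1-KO replicate 3.

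Of 14 genes of the red cell membrane and skeleton 0 passed the adjusted threshold, with a median of 0.75 that fell to -0.14 without Bahd1-KO replicate 3. Slc4a1 and Tmod1 were among the genes of this list higher in Bahd1-KO at an unadjusted p under 0.05, and they are named here after their values were seen. Slc4a1, the band 3 anion exchanger, stood at 2.29, 2.94 and 11.4 CPM in the 3 Bahd1-KO embryos and at 1.19, 1.25 and 2.24 CPM in Bahd1-WT. As with Alas2, the groups did not overlap, and the log2 difference of Slc4a1 was 1.83 (adjusted p = 0.696, edgeR), or 0.74 without Bahd1-KO replicate 3. Tmod1, which caps actin filaments, stood at 1.14, 1.60 and 32.8 CPM in Bahd1-KO, whereas Bahd1-WT had 1.62, 0.930 and 0.861, with overlap. Its log2 difference was 3.38 (adjusted p = 0.696, edgeR) and 0.26 without Bahd1-KO replicate 3. The 3 most abundant genes of the list, Add2, Epb41 and Dmtn, which neurons also use, had log2 differences of -0.66, -0.14 and -0.48. Without Bahd1-KO replicate 3 these were -0.24, -0.06 and -0.31. For Add2 every Bahd1-KO embryo was below every Bahd1-WT embryo, at 76.1 to 332 CPM against 350 to 447 CPM. In this list 3 genes had every Bahd1-KO embryo above Bahd1-WT and 1 had every one below. Of all 24739 genes tested, 1106 and 554 did.

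Transcription factors of red cell precursors ranged from almost no reads to moderate levels. Gata1, the master regulator of the lineage, stood at 0 to 0.148 CPM, Klf1, the activator of adult beta-globin, at 0.107 to 0.178 CPM and Gfi1b at 0 to 0.0209 CPM. Nfe2, an activator of globin genes named after its values were seen, stood at 1.87 CPM in Bahd1-KO replicate 3 and at 0.137 to 0.248 CPM elsewhere. The list held 8 genes, the erythropoietin receptor included. Of the 7 tested 0 passed, with a median of -0.17, or -0.56 without Bahd1-KO replicate 3. The most abundant were Tal1 at 10.01 to 31.4 CPM, Lmo2 at 16.3 to 23.6 CPM and Zfpm1 at 1.28 to 6.40 CPM. Of 6 genes tested for red cell cytoplasm and maturation 0 passed, with a median of 0.18 that became -0.03 without Bahd1-KO replicate 3, and Bpgm stood at 67.3 to 94.6 CPM, Blvrb at 1.10 to 5.84 CPM and Trim10 at 0.159 to 1.89 CPM.

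Known regulators of the globin switch were expressed without a detected difference. Of 11 such genes 0 passed the adjusted threshold, with a median of -0.19 that became 0.05 without Bahd1-KO replicate 3. Chd4, a chromatin remodeller of repressive complexes, stood at 300 to 427 CPM, Bcl11a, a repressor of embryonic and fetal globins, at 43.1 to 371 CPM and Nr2c2 at 125 to 231 CPM. Bahd1-KO replicate 3 was the lowest for Bcl11a and Nr2c2. These genes are also expressed in neurons, and a whole-brain level does not show their level in red cells.

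The rest of the globin clusters gave almost no reads. Hbb-bh2, Hbb-bh3 and Hba-ps4 had no count in any embryo, and Hbb-bh0 reached 0.0099 CPM in 1. Hbq1a stood at 0.0371 to 0.0710 CPM and Hbq1b at 0.0495 to 0.167 CPM, with 0 of the 2 genes tested past the threshold and a median of 0.42, or 0.51 without Bahd1-KO replicate 3. Globins of other cells were also read. Cytoglobin (Cygb) stood at 7.95 to 20.9 CPM, neuroglobin (Ngb) at 0.855 to 1.69 CPM and Adgb at 0.614 to 6.10 CPM, with 0 of 4 past the threshold and a median of 0.02, or -0.05 without it.

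Markers of other tissues moved with single embryos. The sum of 8 fetal liver genes was 1.95, 2.75 and 12.03 CPM in the 3 Bahd1-KO embryos and 1.02, 0.964 and 33.9 CPM in Bahd1-WT, led by Afp, Alb and Apoa1, with Afp at 23.2 CPM in Bahd1-WT replicate 3 and Alb at 5.67 CPM in Bahd1-KO replicate 3. These 2 embryos also had the highest Hba-x and Hbb-y of their groups. The sum of 7 placenta genes was 13.5 CPM in Bahd1-KO replicate 2 and at most 0.167 CPM in the others, led by Psg21, Prl3b1 and Tpbpa, and this embryo had the highest adult globins. The part of liver or placenta RNA in the globin values was not tested. The median log2 difference of the liver list was -0.37, and -1.39 without Bahd1-KO replicate 3. In that fit 8 of 8 genes were lower in Bahd1-KO, beside 11856 lower and 11475 higher of all genes. The liver sums of Bahd1-KO replicates 1 and 2 were below that of Bahd1-WT replicate 3 alone and above those of the other Bahd1-WT embryos. The median log2 difference of the 6 placenta genes tested was 6.13, and 6.73 without Bahd1-KO replicate 3. Of either list 0 genes passed the adjusted threshold.

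**Figure D4:**
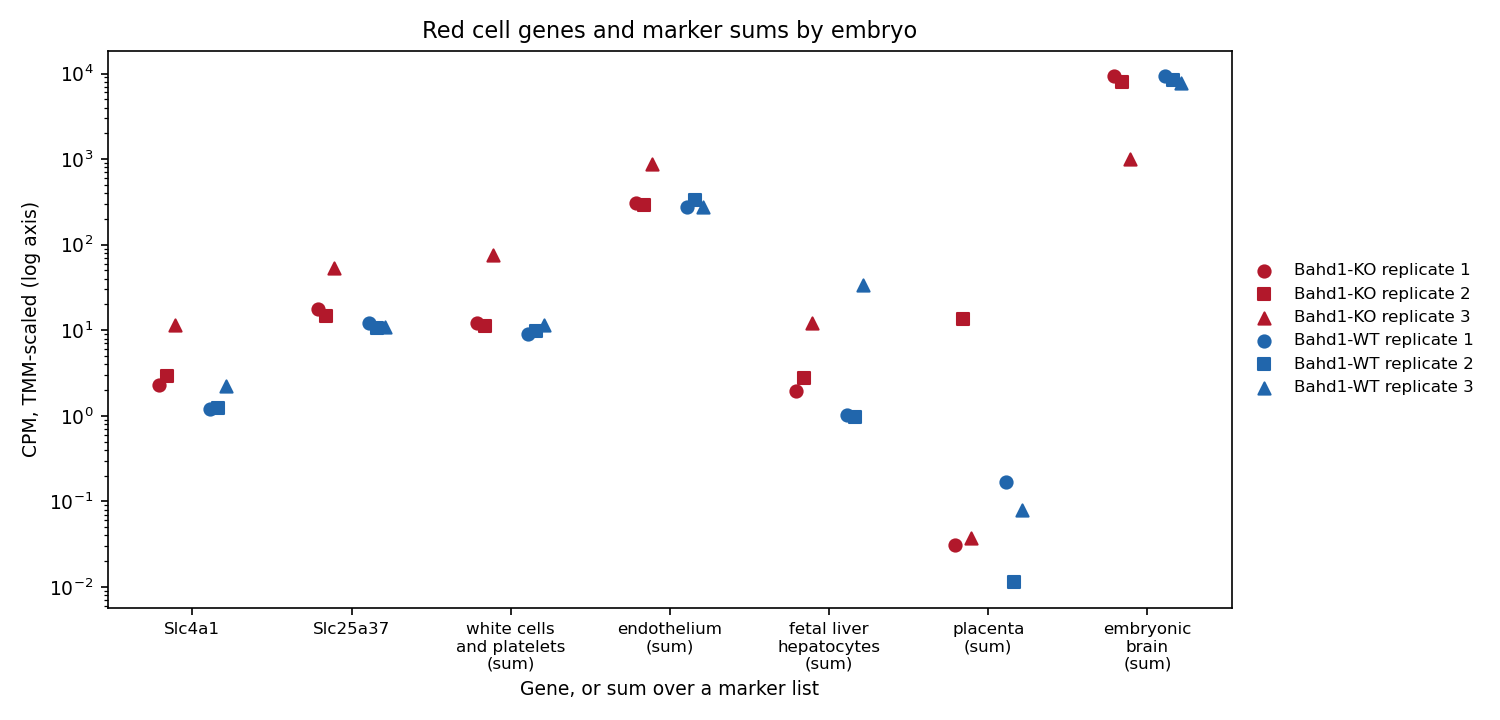
TMM-scaled CPM on a log axis for 2 red cell genes and for the sums of 5 marker lists, with 1 symbol per embryo, Bahd1-KO in red and Bahd1-WT in blue. The 2 red cell genes do not stand for their lists. In both, every Bahd1-KO embryo was above every Bahd1-WT embryo. So were 3 of 14 red cell membrane genes, 1 of 7 iron genes and 4.47% of all genes tested. Of the genes tested in the erythroid factor and red cell maturation lists, 0 of 7 and 0 of 6 were. Bahd1-KO replicate 3 is highest for Slc4a1, Slc25a37, white cells and endothelium and lowest for embryonic brain (1007 CPM). Bahd1-WT replicate 3 is highest for fetal liver (33.9 CPM) and Bahd1-KO replicate 2 for placenta (13.5 CPM). The sum of the red cell membrane list, not shown, was lowest in Bahd1-KO replicate 3, at 467 CPM against 640 to 862 CPM. Of the 14 genes of that list, 10 were highest in this embryo.

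The summed levels of white cell and of vessel markers were highest in Bahd1-KO replicate 3, as were Alas2 and the 3 embryonic globins. The sum of 10 white cell and platelet genes was 74.8 CPM in this embryo and 9.01 to 12.03 CPM in the others, led by Lyz2, Ptprc and Pf4. The sum of 8 endothelial genes was 888 CPM against 277 to 331 CPM, led by Kdr, Pecam1 and Cdh5. In each list 6 genes were highest in this embryo and the others were not. Slco1c1, a transporter of brain vessels, stood at 15.2 CPM there and at 29.1 to 60.5 CPM elsewhere, and Pf4 at 2.04 CPM there and at 1.67 to 3.39 CPM elsewhere. Slco1c1 is named after its values were seen. The medians of these lists were 0.92 and 0.64, falling to 0.13 and -0.03 without this embryo, and 0 genes of either passed the adjusted threshold. The 8 embryonic brain markers, led by Map2, Dcx and Stmn2, had a median of -0.32, and 0.15 without it. What these cells or the smaller share of brain RNA contribute to the globin and Alas2 values of this embryo was not tested.

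The genes most like the group were sought by profile over the 6 embryos, as the mean absolute difference of centred log2 CPM, among 14818 genes with a mean of at least 1 CPM. Those closest to the sum of the 4 adult globins were Slc39a7 (0.218), Pacsin3 (0.237), Plekhh3 (0.242), Trip6 (0.245) and Scarf1 (0.253), against a median of 0.888 over all genes compared. Among the 5 closest to Hbb-y were Alb (1.01), Rsad2 (1.108), Scarna2 (1.112) and Isg20 (1.12), against a median of 1.87. These likenesses describe 6 libraries and share their depth and composition. No gene came as close to Hbb-y as the 5 nearest genes came to the adult sum.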

How the data were processed

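RNA-seq of whole brain was analysed from 3 Bahd1-KO and 3 Bahd1-WT embryos. The values deposited were raw counts, 1 column for each embryo and no normalization. The study's methods and the submitters' processing notes state that the authors built stranded TruSeq libraries from polyadenylated RNA, sequenced 65-base reads in repeated runs, trimmed them with cutadapt 1.11, aligned them with STAR 2.5.0a to GRCm38 and counted exons of Ensembl genes with featureCounts 1.4.6-p3. TopHat2 and a paired-end run with shorter reads are also named, and which of them the table rests on is not stated.

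Genes with at least 10 counts in sum were tested with edgeR 4.0.16 (R 4.3.3), with TMM factors, genotype as the term and Benjamini-Hochberg adjustment over all genes at 0.05. DESeq2 1.42.0, the study's tool, was an alternative. CPM are counts per 1e6 counts of the TMM-scaled library. Ratios within libraries were compared by exact permutation over the 20 relabellings of embryos (SciPy 1.17.1). Gene positions and exon lengths came from GENCODE M21, which matched 53620 genes, and identities were computed with Biopython 1.88. The tests were checked on simulated data. Alternatives covered filters, scaling, DESeq2, ribosomal RNA genes, the replicate number as a block and each embryo left out.

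Named were the 8 genes, Bahd1, the 3 most abundant genes of each list, list genes past the adjusted threshold and the 5 genes nearest in profile to the adult globins and to Hbb-y. Other genes were named after their values were seen. The 8 genes and the lists were chosen with earlier results of these data known. Hba-ps3 and Ahsp were listed but matched no symbol. Some genes are not reported here.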

Additional observations from a re-analysis of the deposited data

How the results depend on the processing

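In all, 185 alternatives were computed for 15 results. Of these, 160 left the direction and the side of the threshold, or the count, as they were, 9 moved a count of genes called and 16 turned a sign. Members past the adjusted threshold were 0 in every alternative, by edgeR or DESeq2. Hba-x, Hbb-y, Hbb-bh1, Alas2 and the 4 ratios within libraries turned in none of theirs. Over all genes, 1 gene was called, against 8 with DESeq2, 11 with DESeq2 without Bahd1-KO replicate 3 (chosen after seeing the data) and 0 with the replicate block, and 0 to 4 with 1 embryo left out, with the 4 found without Bahd1-KO replicate 3. The lost call is Bahd1 and the cause was not tested. Scaling by total counts moved the median log2 difference of all genes from 0.06 to -0.11. Hba-a2 was then -0.14 and Hbb-bs -0.036, and the log2 difference of summed globins -0.10. Hba-a2 was -0.000314 without ribosomal RNA genes and -0.063 with the replicate block. With 1 embryo left out, the log2 difference ranged from -1.27 to 0.24 for Hba-a1, -0.73 to 0.44 for Hba-a2, -0.50 to 0.55 for Hbb-bs, -0.13 to 0.88 for Hbb-bt and -0.48 to 0.69 for the summed globins. Each of these turned without Bahd1-KO replicate 2 and without Bahd1-WT replicate 1, except Hba-a1, which turned without Bahd1-KO replicates 1 or 3 or Bahd1-WT replicate 3.

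Same-numbered embryos correlated at 0.256, 0.337 and -0.123. Differently numbered embryos correlated at -0.504 to 0.375, a range that holds those values. The numbers were therefore not taken to pair embryos. With the replicate block the ratios had exact sign-flip p = 0.25 for both embryonic shares, the smallest value possible. Counted per 65-base stretch found in no other gene, an alternative chosen after seeing the data, the difference in embryonic share was 0.519 percentage points for alpha and 0.734 for beta, against 3.52 and 1.47 from counts. Without the near copies it was 6.39 with Hba-a1 alone and 1.84 with Hbb-bs alone. The sizes of the embryonic shares therefore depend on how reads of the adult copies were counted. With 1 embryo left out they ranged from 1.92 to 4.78 for alpha and 0.624 to 2.07 for beta. Depth limited Hbb-bh1, which could not be tested under filterByExpr.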
